A study of Homo sapiens with 6 samples.

Results

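The genes described here are 10 transcription factors of the AP-1 and early growth response (EGR) families, taken by name from the deposited table: the FOS family (FOS, FOSB, FOSL1, FOSL2), the JUN family (JUN, JUNB, JUND) and EGR1, EGR2 and EGR3. All 10 were found among 57281 genes, each name in 1 row. The 6 RNA-seq libraries were made from HaCaT, a human keratinocyte line that became immortal spontaneously in culture. All cultures were kept for 24 h in TGF-β1 (transforming growth factor β1, 10 ng/ml), 3 without and 3 with silymarin, an extract of milk thistle seed, at 31.25 µg/ml. Since every library had TGF-β1, the comparison is of silymarin added to TGF-β1, and the effect of TGF-β1 itself was not analysed here. HaCaT is 1 immortalised line, and the series' description calls the 3 samples of each group biological replicates.

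FOS and JUN proteins are basic leucine zipper factors. JUN proteins pair with each other or with FOS proteins to form AP-1, which binds DNA elements in the promoters of many keratinocyte genes, whereas FOS proteins need a partner. EGR proteins bind GC-rich elements through zinc fingers, and the corepressors NAB1 and NAB2 restrain them. Several members, among them FOS, FOSB, JUNB and the EGR genes, are classical immediate-early genes. Transcripts of such genes appear and decay quickly after growth factors or stress reach the cell through the ERK, JNK and p38 kinases. A measurement after a day therefore describes a sustained level and not the first pulse.

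Reads recovered from the table came to 20240542 to 30279391 per library in 5 libraries (all but TGF-β1 replicate 3). Values are read counts that the authors had divided by a size factor per library (normalized counts). Of 8 keratinocyte markers, 7 were measured and KRT17 was listed at 0 in every library. The summed level of this list was 314500 to 322700 normalized counts in the TGF-β1 group and 191800 to 208900 with silymarin. Markers of fibroblasts and immune cells were under 10 normalized counts in every library for 7 of 8 and 5 of 6 genes, and those of melanocytes and endothelial cells for 4 of 6 and 2 of 4. The summed level ran from 3334 to 3511 in the TGF-β1 group and from 1715 to 2055 with silymarin for fibroblast markers (COL1A1 was the one above 10), from 219 to 232 and from 296 to 364 for melanocyte markers, from 120 to 136 and from 207 to 260 for endothelial markers, and from 17.2 to 22.1 and from 25.5 to 39.0 for immune markers. The part of these differences in the results below was not tested. In bulk RNA, fewer cells with a transcript and less of it per cell cannot be told apart. Silymarin replicate 2 stood apart on the second principal component, and its deviation from the group mean ran with GC content across genes (Spearman correlation -0.56 over 16828 genes, as a description). The same correlation was 0.381 and 0.43 for silymarin replicates 1 and 3, and -0.252, 0.167 and 0.0957 for TGF-β1 replicates 1, 2 and 3. Of the 5 libraries with recovered reads, silymarin replicate 2 had the fewest, 20240542.

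With silymarin, 4 members rose (JUND, FOSL1, EGR3 and JUN), 3 fell (FOS, EGR1 and FOSL2), and 3 did not pass the threshold (FOSB, JUNB and EGR2), so the FOS and EGR families held members called in opposite directions, whereas the JUN family had none called lower. FOS fell to 0.461 times its level without silymarin, and FOSL1 and JUND rose 1.52-fold and 1.55-fold. All 10 passed the filter on low values, and 7 were called at an adjusted p under 0.05, where 34.2% of 17296 tested genes were called (limma with Benjamini-Hochberg adjustment). The 4 higher and 3 lower calls stand beside 16.0% and 18.2% of tested genes called in those directions. The libraries of the 2 groups did not overlap for 8 members, 5 of them higher and 3 lower, where 47.1% of tested genes did not overlap (23.1% higher and 24.1% lower). The median log2 fold change was 0.09 over the members and 0.004 over all tested genes, and the median absolute log2 fold change was 0.37 against 0.18.

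**Figure D1:**
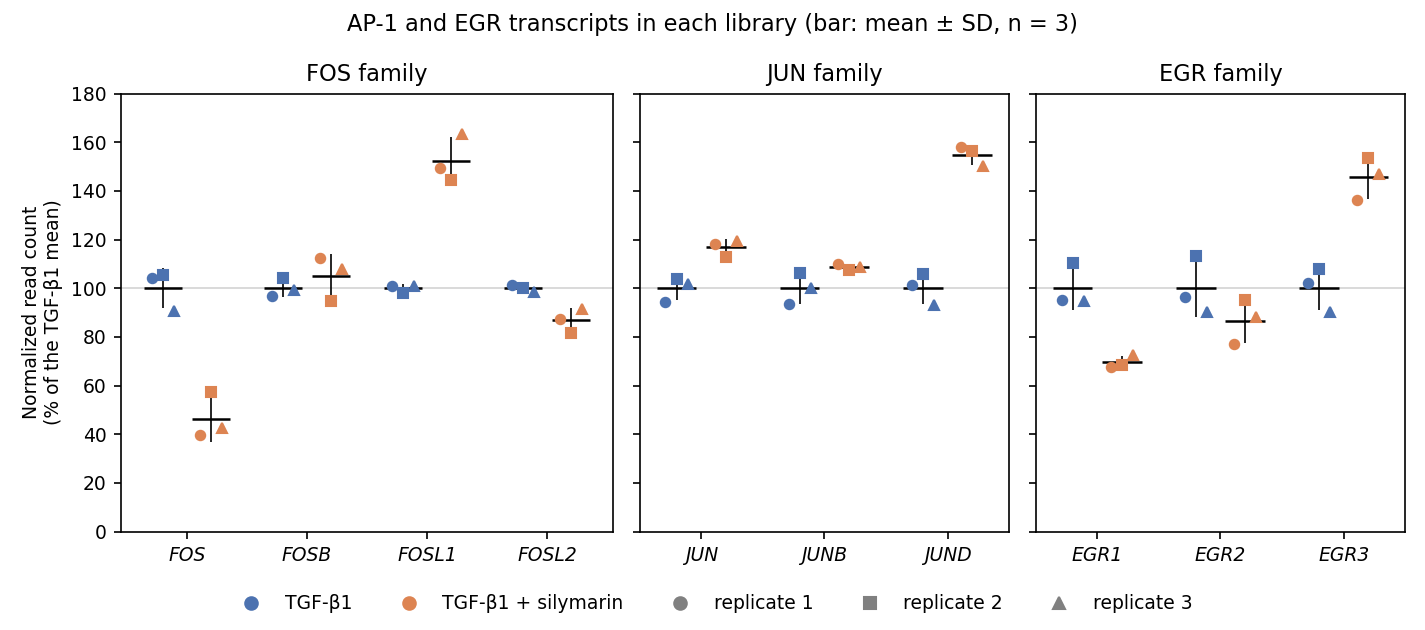
Normalized read count of each member in each library, as a percentage of that gene's mean in the TGF-β1 group (y axis), by gene (x axis). Symbols are the 3 replicates, black bars the mean and SD (n = 3), blue TGF-β1 and orange TGF-β1 plus silymarin. The silymarin libraries of FOS lie at 39.5% to 57.3% of that mean, whereas those of FOSL1, JUND and EGR3 all lie above 130%.

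To show what stands before the start of the members that moved furthest apart, 250 bases upstream of the RefSeq gene start (GRCh38.p14) are given 5′ to 3′ for the 2 immediate-early genes that fell, FOS and EGR1, and for JUND, which rose. FOS lies at chr14:75278578-75278827 on the plus strand, EGR1 at chr5:138465229-138465478 on the plus strand and JUND at chr19:18281623-18281872 on the minus strand. Capitals mark matches on either strand to the CArG box (the core of the serum response element, bound by SRF), to TGACG (a half-site of the cyclic AMP response element), to the AP-1 element TGANTCA and to the EGR element GCGNGGGCG. Overlapping matches run together.
FOS: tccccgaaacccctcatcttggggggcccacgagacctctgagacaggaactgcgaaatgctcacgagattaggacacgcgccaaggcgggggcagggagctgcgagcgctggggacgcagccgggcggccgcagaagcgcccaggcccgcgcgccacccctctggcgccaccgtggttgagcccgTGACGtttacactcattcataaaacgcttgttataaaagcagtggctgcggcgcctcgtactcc
EGR1: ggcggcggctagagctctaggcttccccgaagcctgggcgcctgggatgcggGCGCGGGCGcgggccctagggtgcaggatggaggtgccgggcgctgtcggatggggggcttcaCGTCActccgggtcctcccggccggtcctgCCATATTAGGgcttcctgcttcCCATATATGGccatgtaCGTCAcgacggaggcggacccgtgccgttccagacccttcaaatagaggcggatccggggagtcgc
JUND: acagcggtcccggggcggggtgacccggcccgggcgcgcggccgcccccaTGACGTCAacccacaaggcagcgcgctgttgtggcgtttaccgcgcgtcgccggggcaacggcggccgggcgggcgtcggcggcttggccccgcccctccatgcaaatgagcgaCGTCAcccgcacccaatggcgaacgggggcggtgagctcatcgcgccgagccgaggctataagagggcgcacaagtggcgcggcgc
EGR1 held 2 CArG boxes, 2 TGACG matches and 1 EGR element, FOS held 1 TGACG match 64 bases before its start, and JUND held 3 TGACG matches, of which 2 overlap. Sequence further upstream was not searched, so the absence of a CArG box from the FOS window holds for these 250 bases only.

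Among 35116 RefSeq windows of this length, 1.16% held a CArG box, 6.57% the AP-1 element, 21.2% a TGACG match and 8.41% the EGR element. RefSeq windows of 8 of the 10 members were used. FOSL1 had none, and windows on chromosome 8, where EGR3 lies, were left out. FOSL1 and EGR3 were both called higher. FOSB, JUN and JUNB held 1 TGACG match each and FOSL2 held 2. EGR2 has 3 annotated starts, and the window of the third held 1 CArG box and 2 TGACG matches. None of the 10 windows of these 8 genes held the AP-1 element. Letters that match are a description and do not show that a factor was bound in these cells. TGACG matches stood before genes that rose (JUND, JUN), fell (FOS, EGR1, FOSL2) and did not pass the threshold (JUNB, FOSB, EGR2). For EGR2 they stood before start 3 only. All 8 genes examined held a match, so its presence could not divide them by direction. FOSL1 and EGR3 were not examined.

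**Figure D2:**
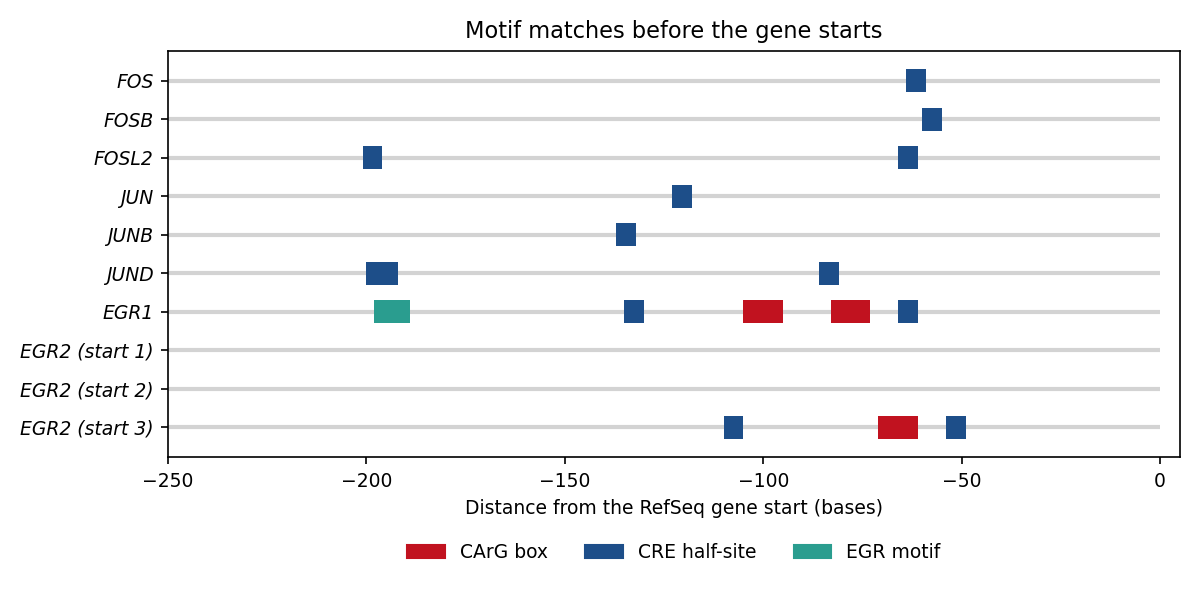
Motif matches in the 250 bases before the RefSeq starts of 8 members (x axis, distance from the start in bases), one line per start. Red boxes are CArG boxes, blue boxes TGACG half-sites and the green box an EGR element. The CArG boxes lie within 105 bases of the start of EGR1 and of start 3 of EGR2, and the windows of starts 1 and 2 of EGR2 hold none.

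The FOS family supplies the partners of JUN proteins. FOS (ENSG00000170345.5, chromosome 14, 75278774 to 75282230 in GENCODE 29 on GRCh38), the first described member and a prototype of the immediate-early genes, stood at 236, 239 and 205 normalized counts in TGF-β1 replicates 1, 2 and 3. In silymarin replicates 1, 2 and 3 it stood at 89.7, 130.0 and 96.1. All silymarin libraries lay below all TGF-β1 libraries, with silymarin replicate 2 the highest of its group. Its log2 fold change was -1.12 (SE 0.136, 95% interval -1.41 to -0.82, adjusted p = 2.91e-05), and 96.5% of tested genes had a smaller absolute change. FOS is a low count in these libraries, 82 to 267 recovered reads, and its spread with silymarin was 20.6% of the mean.

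FOSL1 (ENSG00000175592.4, chromosome 11, 65892049 to 65900573), which encodes FRA1, a member without the strong activation domain of FOS that is linked to keratinocyte migration, moved the other way. It stood at 289, 281 and 288 normalized counts in TGF-β1 replicates 1 to 3 and at 428, 413 and 467 in silymarin replicates 1 to 3. The groups did not overlap, and the coefficient of variation of the TGF-β1 libraries was 1.57%. The log2 fold change of FOSL1 was 0.60 (SE 0.0775, 95% interval 0.44 to 0.77, adjusted p = 4.57e-05).

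FOSL2 (ENSG00000075426.7, chromosome 2, 28392448 to 28417312), which encodes FRA2, was the most abundant FOS family transcript. Its values were 4253, 4214 and 4145 normalized counts in the TGF-β1 libraries and 3672, 3432 and 3851 in the silymarin libraries. Every silymarin library was lower, by a small step. The log2 fold change was -0.20 (SE 0.052, 95% interval -0.32 to -0.09, adjusted p = 0.00789). FOSB (ENSG00000125740.9, chromosome 19, 45467995 to 45475179), the closest relative of FOS, was at 408, 438 and 418 normalized counts without and at 474, 399 and 454 with silymarin. Here the groups overlapped, since silymarin replicate 2 was the lowest of all 6 libraries. For FOSB the log2 fold change was 0.07 (95% interval -0.11 to 0.24, adjusted p = 0.562), an interval that leaves room for changes from 0.929-fold to 1.18-fold.

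JUN proteins are the obligatory side of AP-1. JUND (ENSG00000130522.4, chromosome 19, 18279760 to 18281622), often described as the steadily expressed member that slows proliferation, had 1701, 1776 and 1565 normalized counts in the TGF-β1 libraries. It had 2655, 2628 and 2524 in the silymarin libraries, all above every TGF-β1 library. JUND had the smallest p of the 10 members, with a log2 fold change of 0.63 (SE 0.0574, 95% interval 0.51 to 0.76, adjusted p = 1.95e-06). It is also the most GC-rich member (69.7% GC in its longest transcript). Its log2 fold change was between 0.58 and 0.77 under the 19 other settings, among them a correction for GC content and the fit without silymarin replicate 2.

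JUN (ENSG00000177606.5, chromosome 1, 58780788 to 58784327), which encodes c-JUN, the main target of JNK, was counted at 3149, 3466 and 3394 without and at 3937, 3761 and 3985 with silymarin. The groups did not overlap, and the step was smaller than that of JUND. Its log2 fold change was 0.22 (SE 0.0522, 95% interval 0.11 to 0.34, adjusted p = 0.00465). JUNB (ENSG00000171223.4, chromosome 19, 12791496 to 12793315), which in many settings opposes c-JUN in growth control, was the most abundant transcript of all 10 members. It stood at 8643, 9845 and 9269 normalized counts in the TGF-β1 libraries and at 10169, 9940.0 and 10056 with silymarin.

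All 3 silymarin libraries of JUNB lay above the 3 TGF-β1 libraries, yet the difference did not pass the threshold (log2 fold change 0.12, SE 0.0519, 95% interval 0.01 to 0.23, adjusted p = 0.0874). Without silymarin replicate 2 it passed, with a log2 fold change of 0.13 (adjusted p = 0.0143). With the correction for GC content and length it passed at 0.20 (adjusted p = 0.00153). Under 16 of the 19 other settings JUNB stayed without a call. Without TGF-β1 replicate 1 its log2 fold change was 0.07 (adjusted p = 0.385). Exons of JUNB share 259 annotated bases with exons of HOOK2 on the opposite strand, and HOOK2 rose by 0.51. Whether reads were counted by strand is not known from the labels, and reads in these bases could belong to either gene.

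**Figure D3:**
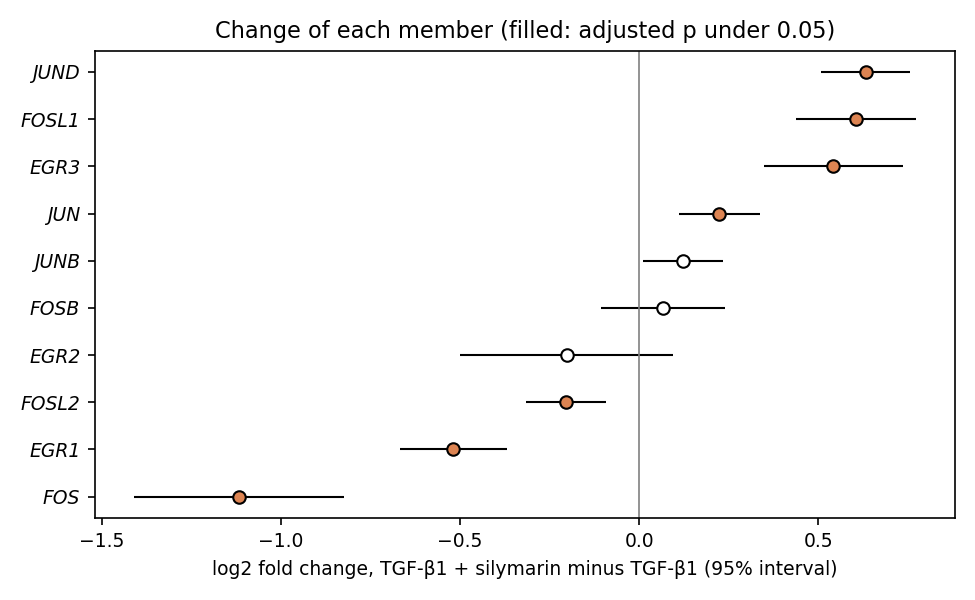
Log2 fold change of each member, TGF-β1 plus silymarin minus TGF-β1 (x axis), with its 95% interval from limma (n = 3 per group). Filled points passed an adjusted p of 0.05. FOS lies lowest at -1.12 and JUND highest at 0.63. The FOS and EGR families have members on both sides of 0, and the 3 JUN family members lie above 0.

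In the EGR family, EGR1 fell and EGR3 rose. EGR1 (ENSG00000120738.7, chromosome 5, 138465490 to 138469315), the zinc finger factor most often used as a readout of ERK signalling, was at 1198, 1392 and 1193 normalized counts in the TGF-β1 libraries. With silymarin it was at 855, 865 and 915, so that the highest silymarin library was below the lowest TGF-β1 library. The log2 fold change of EGR1 was -0.52 (SE 0.0691, 95% interval -0.67 to -0.37, adjusted p = 6.43e-05), or 0.698 times the level without silymarin.

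EGR3 (ENSG00000179388.8, chromosome 8, 22687659 to 22693302), a relative that is itself induced by EGR1 in other cells, was at 260, 275 and 230 normalized counts without and at 347, 391 and 374 with silymarin. The groups did not overlap, and the log2 fold change was 0.54 (SE 0.09, 95% interval 0.35 to 0.74, adjusted p = 0.000405). An annotated noncoding RNA on the opposite strand, ENSG00000253125.1, shares 164 exon bases with EGR3. It was at 66.7 to 75.1 normalized counts without and at 57.3 to 66.6 with silymarin. EGR2 (ENSG00000122877.9, chromosome 10, 62811996 to 62919900), known from myelinating Schwann cells and from immune cells, was the lowest member, with 67 to 119 recovered reads. Its values were 91.9, 108 and 86.0 without and 73.3, 90.5 and 83.9 with silymarin, and the groups overlapped. For EGR2 the log2 fold change was -0.20 (95% interval -0.50 to 0.09, adjusted p = 0.285).

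Levels of different genes were compared as normalized counts per kb of annotated exon sequence, a scale that assumes reads spread over all annotated exons. In the TGF-β1 group JUNB stood at 5084 ± 330.3 per kb (SD, n = 3), above 99.4% of tested genes in its mean over all libraries. JUN (942 ± 47.0) and JUND (902 ± 57.6) followed and overlapped each other. Below them came FOSL2 (587 ± 7.67), EGR1 (402 ± 36.1) and FOSL1 (152 ± 2.38), each apart from its neighbours. FOSB (75.8 ± 2.76) and FOS (70.1 ± 5.79) overlapped, and EGR3 (52.5 ± 4.73) and EGR2 (25.8 ± 3.06) closed the order.

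With silymarin the order changed at 2 places. JUND (1397 ± 37.3 per kb) now stood above JUN (1100.1 ± 33.4) in every library, and EGR3 (76.3 ± 4.61) stood above FOS (32.5 ± 6.69) and overlapped FOSB (79.6 ± 6.98). JUNB (5525 ± 62.9), FOSL2 (510.2 ± 29.4), EGR1 (279.9 ± 10.2), FOSL1 (231 ± 14.9) and EGR2 (22.4 ± 2.35) kept their places among the members.

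The shares of most members in the summed level of their family did not overlap between the groups, and those of JUN and EGR2 did. The FOS family summed to 870 to 894 per kb in the TGF-β1 libraries and to 810 to 897 in the silymarin libraries, which overlapped. Within that sum, the share of FOSL1 was 16.7% to 17.5% without and 26.6% to 27.6% with silymarin. The share of FOS was 7.28% to 8.30% without and 3.25% to 4.95% with silymarin, and that of FOSL2 was 66.1% to 66.5% without and 59.2% to 60.2% with silymarin. A ratio of 2 genes does not depend on the scaling of a library. FOS to FOSL1, per kb, was 0.476, 0.496 and 0.415 in the TGF-β1 libraries and 0.122, 0.184 and 0.120 with silymarin.

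The JUN family summed to 6551 to 7342 per kb without and 7934 to 8125 with silymarin, and the share of JUND was 12.2% to 13.9% without and 16.9% to 17.8% with silymarin. That of JUNB was 72.5% to 73.9% without and 68.8% to 69.0% with silymarin, while the share of JUN overlapped between the groups (13.3% to 13.9% and 13.4% to 14.1%). For the EGR genes the sum was 451 to 529 without and 364 to 391 with silymarin. EGR1 made up 82.9% to 84.3% of it without and 72.4% to 74.9% with silymarin, and EGR3 10.5% to 11.6% and 19.6% to 21.2%. The ratio of EGR1 to EGR3, per kb, was 7.13, 7.84 and 8.04 in the TGF-β1 libraries and 3.81, 3.42 and 3.79 in the silymarin libraries. These shares restate the values of the single genes and were not tested.

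**Figure D4:**
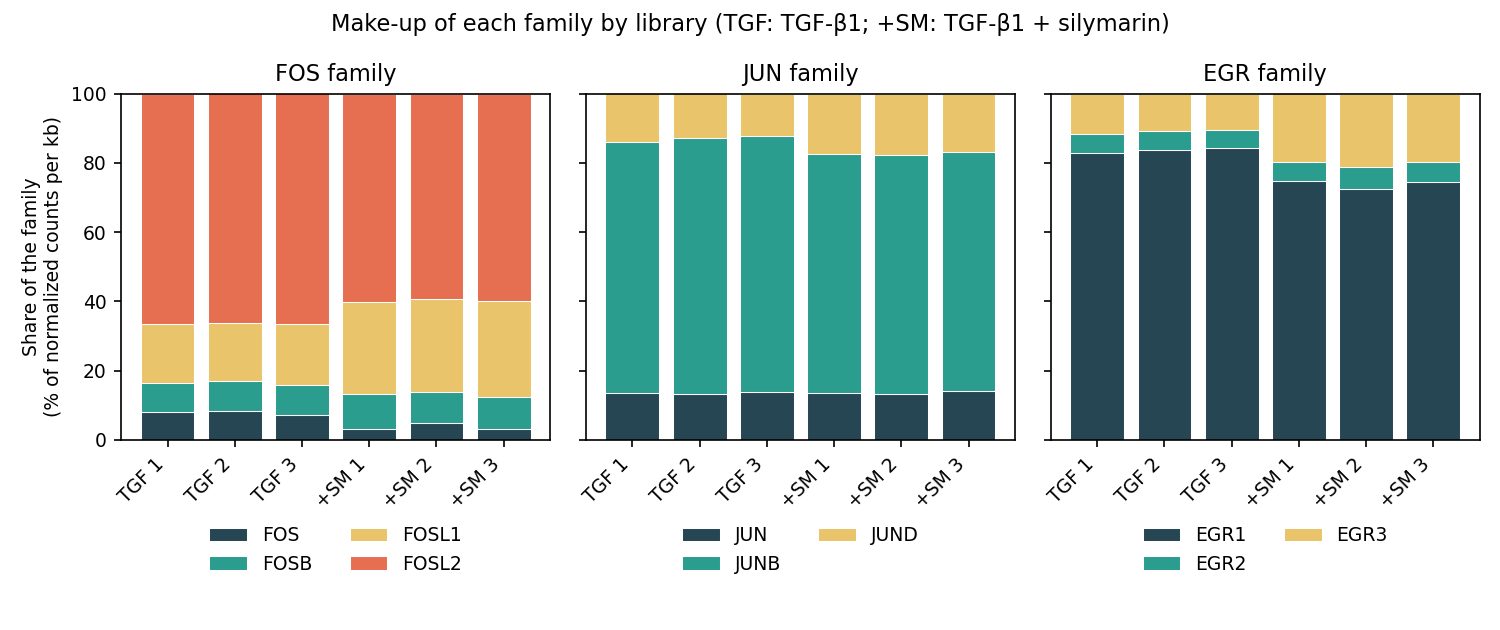
Share of each member in the summed level of its family, in percent of normalized counts per kb (y axis), in each of the 6 libraries (x axis). Colours are the genes of each family. The FOSL1 and EGR3 parts are wider in all 3 silymarin libraries, and the FOS and EGR1 parts narrower.

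The order of the replicates within a group was compared across members. Among the TGF-β1 libraries, replicate 2 held the highest value for 8 of the 10 members (all but FOSL1 and FOSL2), and replicate 3 the lowest for 6. Among the silymarin libraries, replicates 1, 2 and 3 were highest for 3, 3 and 4 members and lowest for 4, 5 and 1. The coefficient of variation in the TGF-β1 group ran from 1.31% for FOSL2 to 11.9% for EGR2, and with silymarin from 1.14% for JUNB to 20.6% for FOS.

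Over the 6 libraries, the profiles most like that of FOS among 12025 other genes (mean level 100 normalized counts or more) were those of CXADR, PPFIBP1 and MSL3 (Pearson r 0.998 for each). For EGR1 they were DHTKD1 and LCAT (r 0.998 for each) and FRK (r 0.996), and for JUN they were NDUFAF3 (r 0.994), RPS18P12 (r 0.993) and SNHG7 (r 0.992). With 6 libraries in 2 groups such values are common: the gene at rank 100 still had an r of 0.986 for FOS, 0.975 for EGR1 and 0.962 for JUN. EGR1 stood at rank 921 for FOS (r 0.925), and FOSL1, at rank 544, was the member most like JUN (r 0.921). These coefficients describe libraries that share a treatment and a scaling, and they carry no test.

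The other partners of AP-1, the ATF, BATF, JDP2 and MAF factors, moved in both directions. Of 14 genes 10 were tested, 2 rose, 3 fell and 5 did not pass, with a median log2 fold change of -0.09. Among all tested genes, 16.0% were called higher and 18.2% lower. ATF3, a stress-induced partner of JUN proteins, rose by 1.13 on the log2 scale (SE 0.0745, adjusted p = 9.55e-08), with 332 ± 14.6 normalized counts without and 728 ± 48.8 with silymarin (SD, n = 3). JDP2, a repressor of AP-1 sites, rose by 0.16 (adjusted p = 0.0285). It no longer passed when TGF-β1 replicate 1, 2 or 3 was left out (adjusted p = 0.111, 0.0909 and 0.0808), without silymarin replicate 1 or 3 (0.112 and 0.0786) and with the replicate number as a block (0.0614). MAF fell by 0.84 (SE 0.0524) and MAFK fell by 0.33. Of the EGR corepressors NAB2, itself an EGR1 target, fell by 0.44 (SE 0.0656, adjusted p = 0.000163), from 1176 ± 57.7 to 866 ± 54.2. NAB1 differed by -0.02 (adjusted p = 0.873), and EGR4 was listed at 0 to 1.01 normalized counts.

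Upstream of these genes, SRF, which binds the CArG box, differed by -0.04 on the log2 scale (adjusted p = 0.651). Of 6 tested genes of SRF and its cofactors, ELK3 rose by 0.25, MKL1 fell by 0.33 and 4 did not pass. Of 25 genes of the ERK, JNK and p38 kinase cascades, 3 rose (MAPK12, MAP2K1 and MAPK9, by 0.45, 0.28 and 0.27) and 8 fell, with a median of -0.01. Shares over all tested genes were 16.0% called higher and 18.2% lower. Without silymarin replicate 2 the number of these kinase genes that rose was 7, and with the correction for GC content and length it was 8. Over all tested genes, 3474 and 3608 were called higher in these settings, against 2764. RPS6KA2, a ribosomal S6 kinase activated by ERK, fell by 0.88. Genes of the p38 pathway were called in both directions, since MAP2K6 and MAPK13 fell by 0.78 and 0.39 and MAPK12 rose by 0.45. MAPK8, which encodes JNK1, differed by -0.01 (adjusted p = 0.938). Transcript levels say nothing of the activity of these kinases. Among 6 genes of AP-1 protein turnover, the ubiquitin ligase genes ITCH and RFWD2 (also named COP1) rose by 0.44 and 0.25, FBXW7 fell by 0.37 and 3 did not pass. RFWD2 no longer passed when TGF-β1 replicate 1 or 3 was left out (adjusted p = 0.0929 and 0.086).

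Other immediate-early genes were likewise divided. Of 29 tested, 9 rose, 6 fell and 14 did not pass, with a median log2 fold change of 0.03. Among all tested genes, 16.0% were called higher and 18.2% lower. MYC, ATF3 and HBEGF rose by 1.09, 1.13 and 1.03, while SGK1 and BTG2 fell by 0.77 and 0.54, and NR4A2 fell by 0.28. IER2, which is induced with FOS and EGR1 in many cells, differed by -0.06 (adjusted p = 0.627).

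Genes listed as targets of AP-1 in keratinocytes were called in both directions. This list, like the others, was chosen with earlier results of these data known. Its share of called genes is therefore no result about AP-1 targets as a class. Of 36 genes on the list that the authors measured, 29 were tested, 14 rose, 13 fell and 2 did not pass, where 34.2% of all tested genes were called, and the median log2 fold change was 0.20. The log2 fold changes were -3.43 for the collagenase gene MMP13, -4.74 for the suprabasal keratin KRT1 and -1.61 for the cornified envelope gene IVL, all 3 lower with silymarin. VEGFA and HMGA1 rose by 1.30 and 0.79. Of 23 tested genes listed as EGR1 targets, 11 rose, 8 fell and 4 did not pass, with a median of 0.06. ID3, FN1 and THBS1 fell by 1.33, 0.98 and 0.80, whereas VEGFA, DUSP4 and DUSP5 rose by 1.30, 0.98 and 1.18. Each of these genes answers to several factors, so the counts are no measure of AP-1 or EGR1 activity, and none of the lists was tested as a set.

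**Figure D5:**
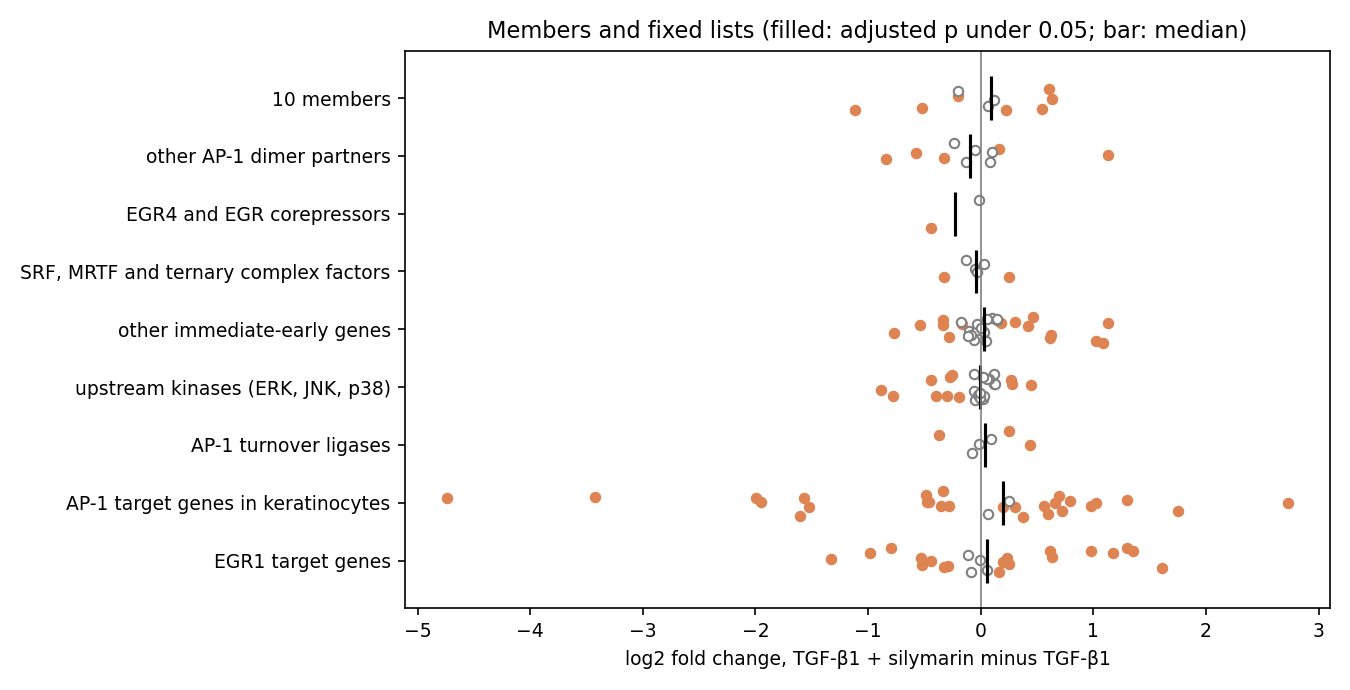
Log2 fold change, TGF-β1 plus silymarin minus TGF-β1 (x axis), of each tested gene in the members and in 8 lists of related genes (rows). Filled points passed an adjusted p of 0.05, and black bars are medians. Points of every list with more than 2 tested genes lie on both sides of 0, and the AP-1 target genes spread furthest, from -4.74 to 2.73.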

How the data were processed

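RNA from HaCaT cells was measured by poly(A) RNA-seq in 6 libraries, 3 per group, grouped by sample title. Per the labels' protocols, RNA came from a mirVana kit and libraries from a stranded Illumina mRNA kit. The submitters' processing notes name DESeq2, Subread 1.5.2, featureCounts, TopHat2 2.1.1, cutadapt 1.15 and bcl2fastq 2.18.12. For genome build, annotation and strand setting, the entry is: not given in the sources used here. One table was deposited by the authors, with a signal as its unit: read counts divided by a size factor. In all 6 columns, 100% of values lay within 0.001 reads of whole multiples of a step per library. TGF-β1 replicate 3, with a step of 1.01, was not accepted as recovered reads. Read numbers, edgeR and DESeq2 therefore cover the other 5 columns.

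In R 4.3.3, limma 3.58.1 with a trended prior was fitted to log2(value + 1) over genes that reached 10 normalized counts in 3 or more libraries, with group as the only term and Benjamini-Hochberg adjustment. Fold changes are on that scale and understate changes of low genes. The spread that p-values rest on is that between replicates. Alternatives were a 5 CPM filter and none, scaling by library size, TMM or upper quartile, a pseudocount of 0.1 or of 10, a threshold of 0.01 on the adjusted p, the replicate block, each library left out, a GC and length correction, and edgeR 4.0.16 and DESeq2 1.42.0 on the recovered reads. The fit was tested on simulated data. Positions, exon lengths and GC content come from GENCODE 29 (97.3% of tested genes matched), whose build may differ from the authors'. The members and lists were chosen with earlier results of these data known. All members are named, and from each list up to 3 called genes per direction by smallest p, and the EGR corepressors. Some genes that this rule names are not reported here. SRF, MAPK8, IER2, ENSG00000253125.1 and HOOK2 were named after their values were seen.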

Additional observations from a re-analysis of the deposited data

How the results depend on the processing

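FOS, FOSL1, FOSL2, JUN, JUND, EGR1 and EGR3 kept their direction and their call under all 19 alternatives, and FOSB and EGR2 stayed without a call in the 19 and 18 that tested them (EGR2 did not pass the 5 CPM filter). JUNB also passed with the GC correction and the replicate block together (adjusted p = 6.88e-05), and stayed without a call in 16 of the 19. Same-numbered libraries did not deviate together (r -0.0392, 0.0422 and 0.0229), so the numbers were not taken to pair them. With the replicate block, 5678 genes were called against 5912, and the only list counts that changed were AP-1 partners called higher, to 1, and immediate-early genes called lower, to 5. At an adjusted p under 0.01, 1667 genes were called higher, and DESeq2 on 5 libraries called 1543 higher and 1946 lower (3489 in all), against 2764 and 3148. The edgeR test on those reads called 4675 of 17843 genes. The number of AP-1 partners called higher was 1 at an adjusted p under 0.01 and with edgeR and DESeq2, and 1 to 2 with a library left out. That of turnover ligases was likewise 1 in those 3 settings and 1 to 2 with a library left out. Immediate-early genes called lower numbered 3 at an adjusted p under 0.01 and 2 with DESeq2, and kinases called lower 5 in both. Kinases called higher numbered 8 with the GC correction, without and with the block, and 3 to 7 with a library left out. NR4A2 lost its call with DESeq2 (adjusted p = 0.121). NAB1, which was not called, had a log2 fold change of 0.0034 with library-size scaling and ran from -0.095 to 0.042 with a library left out (0.0036 without silymarin replicate 1 and 0.042 without silymarin replicate 3). The cause of these differences was not tested. Depth limits FOS and EGR2, with 67 to 267 reads.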
